A study of Rattus norvegicus with 6 samples.

Results

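A set of 10 genes of the integrated stress response and the unfolded protein response was followed in rat renal cortex after 4 weeks of exposure to 4-hydroxy-m-phenylenediammonium dichloride. This compound is a salt of 2,4-diaminophenol, whose amino and hydroxyl groups make it easily oxidised. The members were given by name and were Atf4, Ddit3, Atf3, Trib3, Chac1, Asns and Sesn2 (7 genes, called the ATF4 arm here) and Xbp1, Hspa5 and Herpud1 (3 genes, called the chaperone arm). All probes listed under a RefSeq accession of a member were taken, 14 probes in all, among 61537 non-control probes on each array. A probe was kept where all 3 arrays of a group read it well above background. This left 13 of the 14 probes, and all 10 genes were among the 12130 genes tested.

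The treated group held 3 male Sprague-Dawley rats (Crl:CD(SD)) given 100 mg/kg/day of the compound, and the control group held 3 males of the same strain given corn oil. All animals were 5 weeks old when purchased, ate a basal diet and were dosed for 4 weeks. For the compound, neither route nor vehicle is stated in the sources used here. Each animal had 1 single-colour Cy3 array of total RNA from renal cortex tissue, so in every value below fewer cells of a type and less RNA per cell cannot be told apart.

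The 3 treated arrays lay on 1 slide and the 3 control arrays on another, each slide scanned on its own, so slide, scan and treatment cannot be told apart. Between 68.9% and 69.6% of probes were well above background on treated arrays and between 63.1% and 67.7% on control arrays, and no spot was saturated. The number of arrays limits the precision. After scaling, the 10 spike-in transcripts were all lower in the treated group, with a median log2 difference of -0.13. The median log2 difference of the 249 dim chemosensory receptor genes among the genes tested was 0.40, or 0.14 with a normexp background. These genes had passed the same filter, well above background on all 3 arrays of at least 1 group. Dim genes that entered only through the treated group can raise this median, and how far they did was not tested. All 10 cortex markers tested, among them the proximal tubule genes Lrp2 and Slc34a1 and the podocyte gene Nphs1, were well above background on all 6 arrays. Of these, 1 gene, the aquaporin gene Aqp1, was lower in treated rats (log2 fold change -0.58, limma adjusted p = 0.0340), where 1.33% of all genes passed as lower. The summed log2 level of the cortex markers ran from 9.75 to 9.87 in treated rats against 9.98 to 10.1 in control rats. For 4 renal medulla markers, of which 0 passed, it ran from 5.49 to 5.59 against 5.71 to 5.90. The part of these shifts in the members' values was not tested.

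ATF4 is a transcription factor whose synthesis rises when translation initiation factor eIF2 alpha is phosphorylated by kinases that sense amino acid shortage, haem shortage, viral RNA or unfolded protein in the endoplasmic reticulum. Because that control acts on translation, the level of Atf4 mRNA need not follow the level of the protein, whereas its target genes are read out as mRNA. The other arms of the unfolded protein response, IRE1 with XBP1 and ATF6, induce chaperones and the degradation machinery of the endoplasmic reticulum. Proximal tubule cells take up and degrade much filtered protein and are a common site of such stress in toxic kidney injury.

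The 2 arms are known to be read through different promoter elements, so the promoters that hold one are shown. CARE, the element bound by ATF4 with C/EBP proteins, was searched as TGATGNAA. The endoplasmic reticulum stress element ERSE was searched as CCAAT and CCACG with 9 bases between them, and its variant ERSE-II as ATTGG and CCACG with 1 base between them, all on both strands of the 250 bases before the start site. The RefSeq table (build GRCr8) held a promoter for 9 members, without Atf3, and 5 of them held a match. The last 200 bases before the start site are printed 5′ to 3′ on the strand of the gene, with matches in capitals (Chac1, chr3:126795931-126796130, plus strand, and Trib3, chr3:161275534-161275733, minus strand, both with CARE).

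Chac1: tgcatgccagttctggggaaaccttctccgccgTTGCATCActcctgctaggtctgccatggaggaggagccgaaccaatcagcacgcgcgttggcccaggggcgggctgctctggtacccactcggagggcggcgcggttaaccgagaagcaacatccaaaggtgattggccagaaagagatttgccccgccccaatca
Trib3: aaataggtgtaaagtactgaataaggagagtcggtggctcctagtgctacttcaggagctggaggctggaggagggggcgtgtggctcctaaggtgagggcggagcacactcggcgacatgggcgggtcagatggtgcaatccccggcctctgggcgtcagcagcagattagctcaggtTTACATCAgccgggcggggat

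Xbp1 (chr14:84604423-84604622, plus strand) and Hspa5 (chr3:38452816-38453015, plus strand) each held an ERSE, and Herpud1 (chr19:10614708-10614907, minus strand) held a CARE and, nearer to the start site, an ERSE-II.

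Xbp1: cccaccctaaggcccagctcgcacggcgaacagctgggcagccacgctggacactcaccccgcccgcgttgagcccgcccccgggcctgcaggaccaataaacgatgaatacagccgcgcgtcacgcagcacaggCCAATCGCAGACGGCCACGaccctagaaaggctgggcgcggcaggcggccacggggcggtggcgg
Hspa5: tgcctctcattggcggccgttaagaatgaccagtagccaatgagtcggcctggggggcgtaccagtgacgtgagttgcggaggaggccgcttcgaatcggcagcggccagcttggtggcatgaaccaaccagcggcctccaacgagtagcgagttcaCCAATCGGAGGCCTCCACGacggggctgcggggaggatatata
Herpud1: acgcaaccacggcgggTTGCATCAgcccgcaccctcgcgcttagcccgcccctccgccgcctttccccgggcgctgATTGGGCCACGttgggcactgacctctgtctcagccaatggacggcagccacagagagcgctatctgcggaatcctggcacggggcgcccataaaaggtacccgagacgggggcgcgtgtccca

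CARE began 167 bases before the start site in Chac1, 21 in Trib3 and 184 in Herpud1, each read on the opposite strand. ERSE began 65 bases before the start site in Xbp1 and 43 in Hspa5, and ERSE-II 124 before that of Herpud1. Over all 33469 promoters of the table, 3.40% held a CARE, 0.0657% an ERSE and 0.0418% an ERSE-II. Neither TGACGTGG (UPRE, 0.520% of promoters) nor TGACGTCA (CRE, 1.59%) was found in a member, and 4 members, Atf4, Ddit3, Asns and Sesn2, held none of these 5 motifs in this window. No motif overlapped another. A match is a description of these letters only.

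Of the 10 members only Chac1 passed the test, as higher in treated cortex, a call lost in 10 of 17 alternative settings. Asns had a larger log2 fold change (0.37 against 0.34) and Herpud1 a similar one (0.32), and neither passed. By limma with Benjamini-Hochberg adjustment over the 12130 genes, 1 member passed as higher, 0 passed as lower and 9 missed the threshold. Of all genes tested 4.38% passed in either direction, 3.05% as higher (370 genes) and 1.33% as lower (161 genes). With spike-in scaling this split was 833 higher and 29 lower, and with a normexp background 449 and 496. At an unadjusted p under 0.05 the count was also 1 member, against 25.0% of all genes. The groups did not overlap for 3 members, Chac1, Ddit3 and Asns, and the same was true of 32.8% of all genes. The mean was higher in treated rats for 6 members and lower for 4, but with spike-in scaling it was higher for 9, Atf4, Atf3 and Hspa5 among them, and Xbp1 and Trib3 turned negative with a normexp background. The 95% limma interval of the difference lay between a 2-fold decrease and a 2-fold increase for all 10 members at the probe used for the gene.

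**Figure D1:**
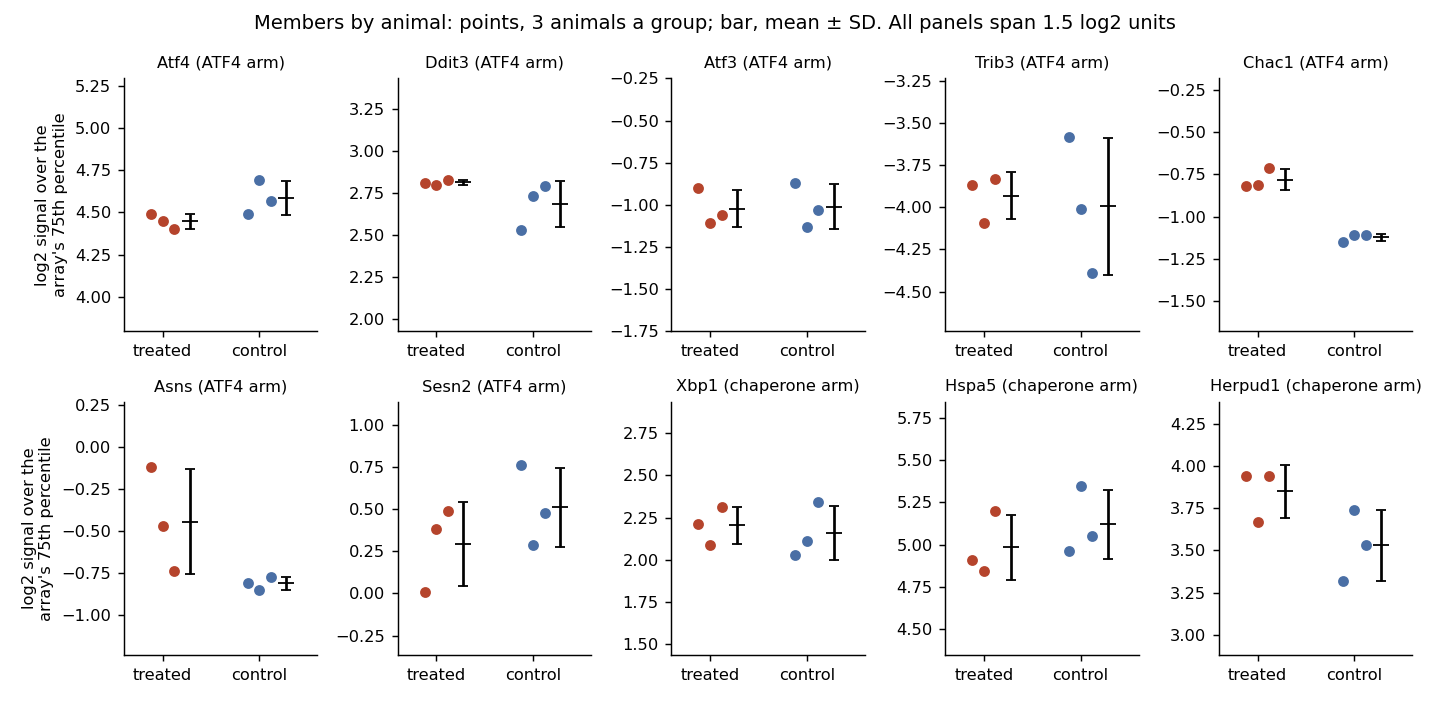
Signal of the 10 members in each animal, at the probe used for the gene, as log2 of the signal over the 75th percentile of the array, with treated rats on the left of each panel and control rats on the right. Points are single animals, bars are mean ± SD (n = 3 each), and every panel spans the same height. Chac1 shows the widest gap between groups (0.29), Ddit3 and Asns do not overlap either, and the groups of the other 7 members do.

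Among the regulators, Atf4 itself had log2 levels, relative to the 75th percentile of its array, of 4.49, 4.45 and 4.40 in treated rats against 4.49, 4.69 and 4.57 in control rats. Treated replicate 1 lay level with the lowest control animal and the other treated animals lay below it. The log2 fold change was -0.13 (SE 0.07, limma adjusted p = 0.305), with a 95% interval from -0.31 to 0.04. Ddit3, which encodes the transcription factor CHOP, an ATF4 target linked to cell death under prolonged stress, had log2 levels of 2.81, 2.80 and 2.83 in treated rats and 2.53, 2.73 and 2.79 in control rats at its brighter probe. The treated animals lay closely together and just above the highest control animal, while the control animals spread more widely. The difference was 0.13 on the log2 scale (SE 0.08, adjusted p = 0.361). Its other probe, listed under another transcript accession of the gene, had a log2 fold change of -0.06 with overlapping groups (adjusted p = 0.728 over all probes kept, of which 6.72% passed and 4.98% passed as higher), so the probes did not share a direction. Atf3, a stress-induced transcription factor of the same family, had log2 levels of -0.90, -1.11 and -1.06 in treated rats against -0.87, -1.13 and -1.03 in control rats. Both groups covered the same range, and the log2 fold change was -0.01 (interval -0.25 to 0.23, adjusted p = 0.958).

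Chac1, which encodes a gamma-glutamyl cyclotransferase that breaks down glutathione and is a well-known ATF4 target, was the member that passed. At its brightest probe (A_64_P112406) the log2 levels were -0.82, -0.81 and -0.71 in treated rats against -1.15, -1.11 and -1.11 in control rats. Every treated animal lay above every control animal, and the gap of 0.29 between the groups was wider than the widest range within a group, 0.11. This is a 1.27-fold increase (log2 fold change 0.34, SE 0.06, adjusted p = 0.0388) with an interval from 1.15-fold to 1.40-fold, and 18.4% of all genes tested had a larger difference in either direction. The call was lost in all 6 fits that left out 1 array (log2 fold change 0.31 to 0.36, adjusted p from 0.0934 to 0.109), with the array median as the scale (adjusted p = 0.0646), with no filter on dim probes (adjusted p = 0.0796), with the mean of the probes of a gene (adjusted p = 0.0627) and with the replicate number as a block (adjusted p = 0.138).

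A dimmer probe of Chac1 (A_44_P776556) also separated the groups, with log2 levels of -3.62, -4.50 and -4.46 in treated rats and -5.04, -5.76 and -6.01 in control rats. It was well above background on all 3 treated arrays but on 1 of 3 control arrays. The difference was 1.41 on the log2 scale (2.66-fold) and did not pass over all probes kept (adjusted p = 0.0675). With a normexp background it was 0.42, while the brightest probe gave 0.32 under that processing. The dim receptor genes described above were also higher on the treated slide, and their part in the value of this probe was not tested. The third probe (A_43_P17471) was not well above background on any of the 6 arrays, so it gives no fold change.

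**Figure D2:**
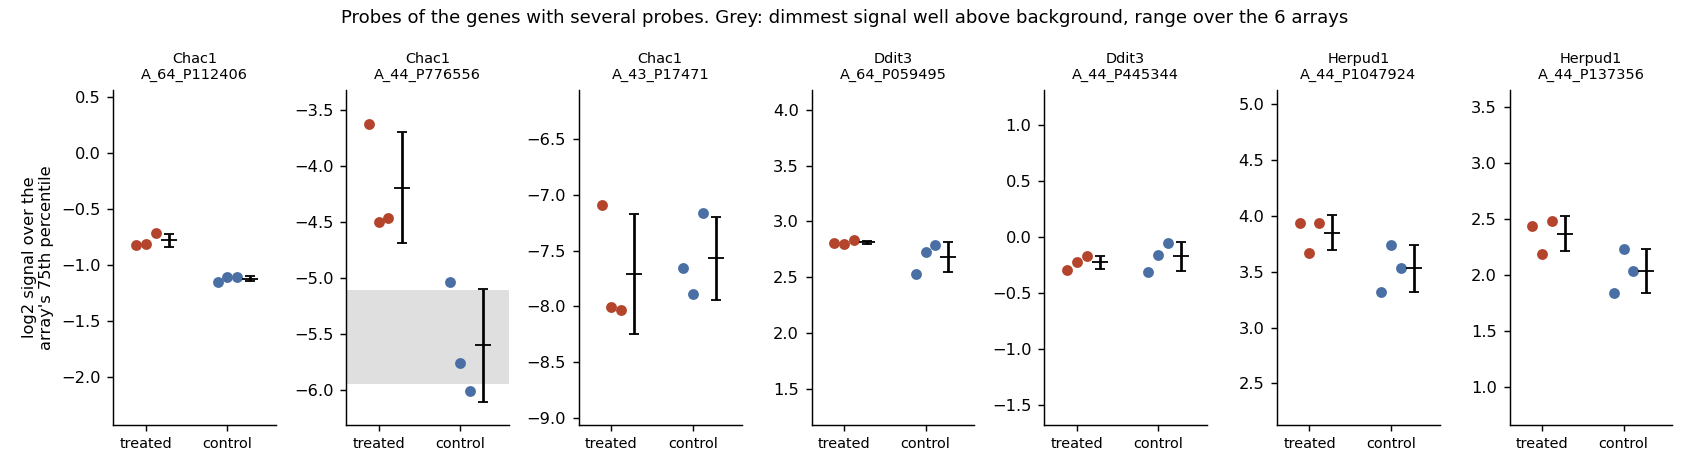
Signal of each probe of the 3 members with several probes, as log2 over the 75th percentile of the array, with treated rats on the left and control rats on the right (points are animals, bars mean ± SD, n = 3 each). The grey band is the dimmest signal well above background over the 6 arrays, from -5.95 to -5.11, and the control values of the middle Chac1 probe lie in or around it, while all values of the third Chac1 probe lie below it (the band is above the top of that panel).

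The other ATF4 targets did not pass. Asns, asparagine synthetase, had log2 levels of -0.12, -0.47 and -0.74 in treated rats against -0.81, -0.85 and -0.77 in control rats. The control animals lay within 0.08 of each other, and treated replicate 3 stood just above the highest of them while treated replicate 1 stood far above. The log2 fold change was 0.37 (SE 0.16, adjusted p = 0.221), from 0.21 to 0.52 when single arrays were left out. Trib3, a pseudokinase that binds AKT and is induced by ATF4 with CHOP, had log2 levels of -3.87, -4.09 and -3.83 in treated rats, inside the wider span of -3.58, -4.01 and -4.39 in control rats. Its log2 fold change was 0.06 (interval -0.46 to 0.58, adjusted p = 0.886). Sesn2, a sestrin that restrains mTORC1 when leucine is short, had log2 levels of 0.01, 0.38 and 0.49 in treated rats and 0.76, 0.29 and 0.48 in control rats. The lowest value was that of treated replicate 1 and the groups overlapped (log2 fold change -0.22, interval -0.64 to 0.21, adjusted p = 0.480). Treated replicate 1 thus held both the highest Asns value and the lowest Sesn2 value among the 6 animals.

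In the chaperone arm, Hspa5, which encodes BiP, the main chaperone of the endoplasmic reticulum lumen, had log2 levels of 4.91, 4.84 and 5.20 in treated rats against 4.96, 5.35 and 5.05 in control rats. The groups overlapped, and the log2 fold change was -0.14 (SE 0.14, interval -0.49 to 0.22, adjusted p = 0.587). Xbp1, whose mRNA is spliced by IRE1 to give the active transcription factor, had log2 levels of 2.21, 2.09 and 2.31 in treated rats and 2.03, 2.11 and 2.34 in control rats. Its log2 fold change was 0.04 (interval -0.21 to 0.30, adjusted p = 0.829), and this single probe gives no separate value for the spliced form. Herpud1, a membrane protein of the degradation machinery that is induced strongly by unfolded protein, had log2 levels of 3.94, 3.67 and 3.94 in treated rats against 3.32, 3.74 and 3.53 in control rats. The treated value was the higher one in 8 of 9 pairs of animals, and the log2 fold change of 0.32 (SE 0.14, interval -0.01 to 0.66) did not pass (adjusted p = 0.216). Its dimmer probe gave 2.44, 2.19 and 2.48 in treated rats and 1.84, 2.23 and 2.04 in control rats, again with 8 of 9 pairs higher and a log2 fold change of 0.33 (adjusted p = 0.186 over all probes kept). Herpud1 differed in sign from Hspa5, but both intervals include 0, and with spike-in scaling the log2 fold change of Hspa5 was 0. All 3 genes of this arm, Xbp1 (0.04) among them, hold a stress element in the sequences printed above. The difference between these genes was not tested.

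**Figure D3:**
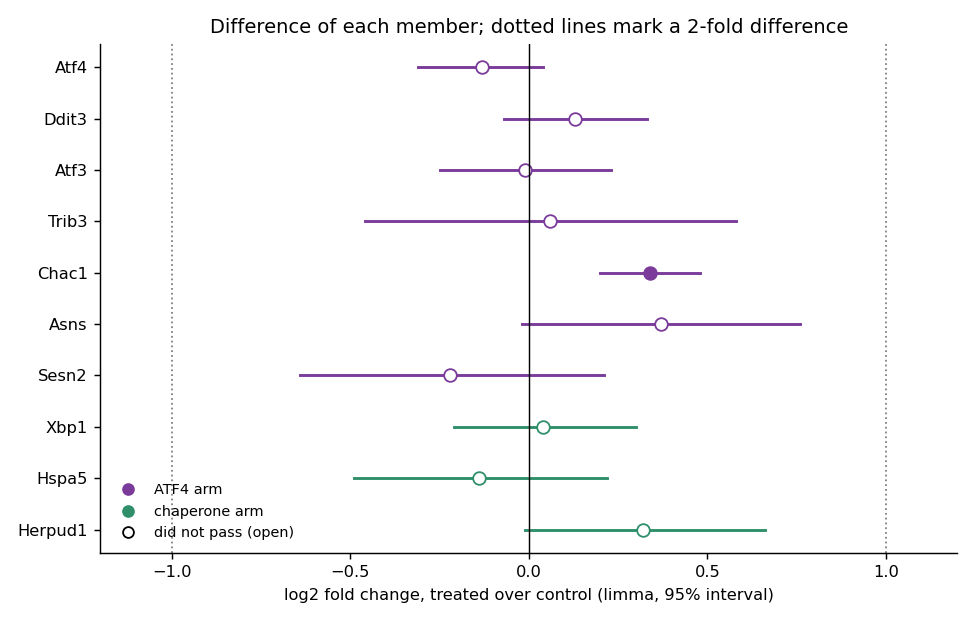
Log2 fold change of each member, treated over control, with its 95% limma interval (n = 3 animals each). The filled point, Chac1 at 0.34, passed the test, 9 open points did not, and all intervals stay inside the dotted lines at a 2-fold difference.

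The arms were then set against each other, animal by animal. Averaged over the 7 genes of the ATF4 arm, the log2 difference from the control mean was 0.11, 0.05 and 0.08 in the treated animals against 0.08, -0.03 and -0.04 in the control animals. For the 3 genes of the chaperone arm it was 0.08, -0.07 and 0.21 in the treated animals against -0.16, 0.13 and 0.04 in the control animals. In both arms the groups overlapped. The ATF4 arm minus the chaperone arm was 0.03, 0.12 and -0.14 in the treated animals and 0.24, -0.16 and -0.08 in the control animals. The difference between arms thus varied more among control animals (SD 0.21) than among treated ones (SD 0.13). The median log2 fold change was 0.06 in the ATF4 arm, with 4 of 7 means higher, and 0.04 in the chaperone arm, with 2 of 3 means higher, beside -0.030 over all genes tested. These are descriptions of genes chosen with earlier results known, and no test was made of them.

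**Figure D4:**
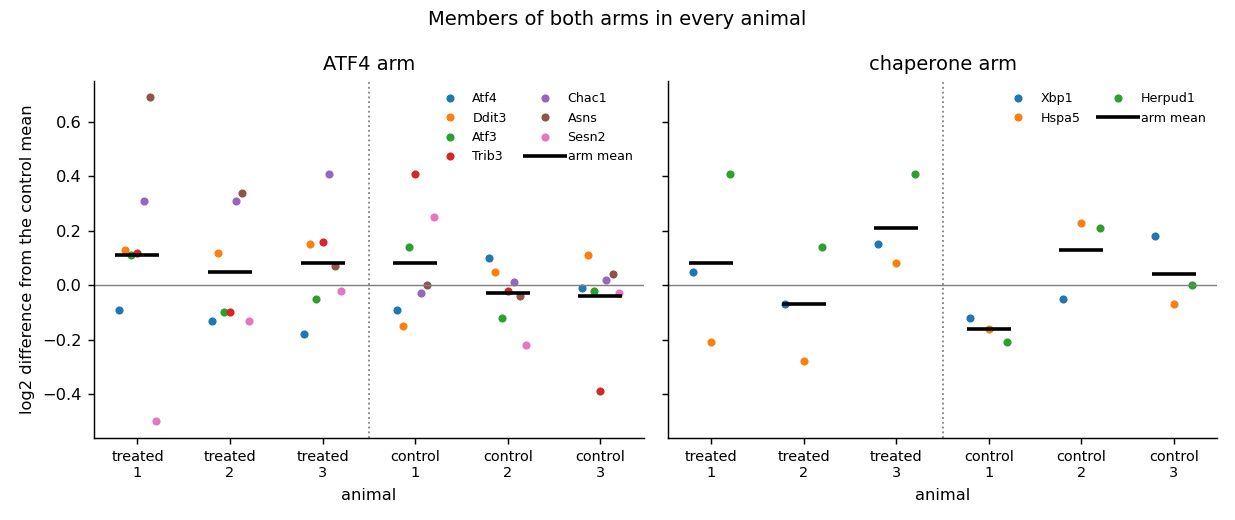
Log2 difference of each member from its control mean in each of the 6 animals, treated animals left of the dotted line, with the ATF4 arm on the left and the chaperone arm on the right. Black bars are arm means, which run from 0.05 to 0.11 in treated animals for the ATF4 arm and from -0.07 to 0.21 for the chaperone arm; control bars cover part of both ranges.

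Upstream of the members, the kinases and phosphatases of eIF2 alpha did not pass, with 0 of 8 genes higher and 0 lower, and a median log2 fold change of -0.04. The smallest p in that list belonged to Eif2s1, eIF2 alpha itself, at a log2 fold change of -0.20 (adjusted p = 0.0843), with -0.19 at its other probe and every treated animal below every control animal. Eif2ak3, the kinase PERK that senses unfolded protein, had a log2 fold change of 0.10 (adjusted p = 0.359), with 0.05 at its other probe. Of 6 sensors and processing enzymes of the unfolded protein response, 0 were called, and the median was -0.02. Atf6, the membrane-bound transcription factor that induces chaperones, came nearest to the threshold. Its log2 levels were 1.36, 1.27 and 1.53 in treated rats against 1.78, 1.81 and 1.91 in control rats, with no overlap. The log2 fold change was -0.44 (SE 0.09, adjusted p = 0.0509), its other probes gave -0.40 and -0.24, and it passed as lower in 5 of 17 alternative settings (adjusted p from 0.0192 to 0.133 over all of them). Its relative Atf6b had a log2 fold change of 0.08 (adjusted p = 0.512).

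Among enzymes of amino acid synthesis and one-carbon metabolism, 1 of 11 genes tested passed as higher, 0 as lower and 10 did not pass. The list median was -0.01. The gene that passed was Mthfd2, a mitochondrial folate enzyme and ATF4 target. Its log2 levels were -1.59, -1.36 and -1.62 in treated rats against -2.02, -2.03 and -2.16 in control rats. The groups did not overlap, and the increase was 1.46-fold (log2 fold change 0.55, SE 0.09, adjusted p = 0.0390). All 5 of its probes had a higher mean in treated rats, with log2 fold changes from 0.24 to 0.88. The call was lost in 10 of 17 alternative settings, all 6 that left out 1 array among them (adjusted p from 0.0264 to 0.120 over the 17). Of 12 aminoacyl-tRNA synthetase genes, which charge tRNA and are broadly induced by ATF4, 0 passed and the median was -0.02. The smallest p there was that of Iars1, at a log2 fold change of -0.20 (adjusted p = 0.0810), and its other probe gave -0.40. Nars1 followed at 0.25 (adjusted p = 0.106), but its other probe gave 0.01.

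Of 9 amino acid transporter genes of the response 5 were tested and 0 passed (median 0.10). Slc7a11, the cystine importer, which NRF2 also induces, read well above background on all 3 treated arrays and on 0 of 3 control arrays, with log2 levels of -4.73, -4.85 and -5.40 in treated rats against -5.54, -6.78 and -5.61 in control rats. Its mean was at least 1.40-fold higher when each control value is raised to the dimmest signal well above background on its array. That bound leaves out the spread between animals (log2 interval of the unraised values 0.04 to 1.92), and Slc7a11 did not pass (limma adjusted p = 0.186). The dim receptor genes described above were also higher on the treated slide, and their part in this value was not tested. Slc1a5, a glutamine transporter, had a log2 fold change of 0.20 (adjusted p = 0.320), and its other probe gave 0.02. Of 8 partner and related transcription factors 0 passed, and the smallest p was that of Nfe2l1, at a log2 fold change of 0.24 (adjusted p = 0.108), followed by Junb at 0.26 (adjusted p = 0.172), with 0.27 at its other probe.

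Of 12 stress output and death genes tested 0 passed, 10 had a higher mean in treated rats, as had 43.5% of all genes, and the list had a median log2 fold change of 0.18, beside -0.030 over all genes. Leaving out single arrays gave medians from 0.13 to 0.27, the highest without treated replicate 1. The unadjusted p was under 0.05 for 4 of them, all with a higher mean, where 25.0% of all genes had such a p and 11.8% had it with a higher mean. Among the 4, Fgf21 read well above background on 0 of 3 control arrays and entered only through the treated group. Without Fgf21, 3 of 11 genes had such a p with a higher mean, and with Fgf21 at its bound the list median was 0.17. Nupr1, a small stress-induced chromatin protein and ATF4 target, had log2 levels of 0.26, 0.05 and 0.16 in treated rats against -0.17, -0.43 and -0.32 in control rats. The groups did not overlap, and the log2 fold change of 0.46 just missed the threshold (SE 0.09, adjusted p = 0.0566). Cdkn1a, the p21 inhibitor, gave a log2 fold change of 0.35 (adjusted p = 0.0836), while its dimmer probes gave -0.12 and -0.24.

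Of 19 chaperones and folding enzymes of the endoplasmic reticulum 0 passed as higher, 1 as lower and 18 did not pass. The median log2 fold change was -0.08, beside -0.03 over all genes, with 14 means lower in treated rats. Of all 12130 genes tested, 6848 had a lower mean. Under spike-in scaling the list median was 0.06 with 8 means lower, where the median of all genes was 0.11. The list median was -0.14 with 16 means lower without control replicate 1 and -0.13 with 15 lower without control replicate 3. Without control replicate 2 it was -0.05 with 10 lower. The gene that passed as lower was Fkbp2, a prolyl isomerase of the lumen. Its log2 levels were 4.90, 5.06 and 5.01 in treated rats against 5.36, 5.43 and 5.30 in control rats. This was a 1.30-fold decrease (log2 fold change -0.37, adjusted p = 0.0463), its other probe gave -0.14, and the call was lost in 12 of 17 alternative settings (adjusted p from 0.0260 to 0.182). Of 13 genes of degradation and translocation 0 passed (median -0.05), and the smallest p was that of Edem3, at a log2 fold change of -0.23 (adjusted p = 0.154), followed by Sel1l at -0.19 (adjusted p = 0.180), with -0.09 at its other probe. The 9 lists together had 94 of 108 genes tested, with 1 gene called higher, 1 called lower and 92 uncalled, and a median of -0.02. Of all genes tested, 4.38% were called in either direction.

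**Figure D5:**
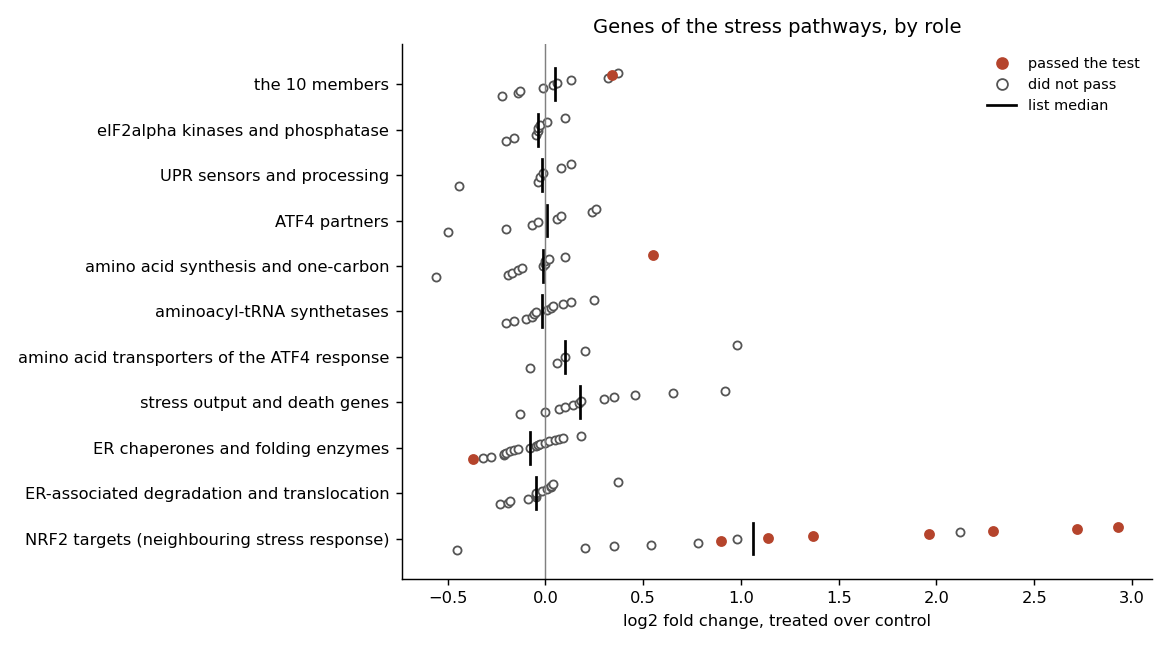
Log2 fold change, treated over control, of each gene tested in the 9 stress pathway lists and in a list of NRF2 targets, below the 10 members. Filled points passed the test and black bars are list medians, which lie between -0.08 and 0.18 for the 9 pathway lists and at 1.06 for NRF2 targets.

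Targets of NRF2, in the neighbouring response to oxidants, were read on the same arrays, from a list made with earlier results of these data known. Of 14 NRF2 targets tested, 7 passed as higher and 0 as lower, and the median log2 fold change was 1.06. Limma called 0 genes higher over the whole table with the replicate block, without treated replicate 2 or 3, and without any single control array. These 7 calls were therefore lost in those fits as well. Of all genes tested, 3.05% passed as higher. Of the 14, 12 read well above background on all arrays. The other two, Gclm, which is 1 of the 7, and Slc7a11, did so on 0 of 3 control arrays and entered only through the treated group. Without them 6 of 12 passed as higher, and with both at their bounds the median was 1.02. Markers of other cell types were read on the same arrays. Of 10 red blood cell markers tested 2 were higher and 0 lower, with a median of 1.53 and a summed log2 level from 7.81 to 8.39 in treated rats against 7.20 to 7.57 in control rats. Of these 10, 9 were well above background on all arrays. Gata1, which is 1 of the 2, was so on 0 of 3 control arrays, is bounded at 1.1-fold or more, and entered only through the treated group. With Gata1 at its bound the median was 1.13. Of 14 leukocyte markers 0 passed, and their summed log2 level, set mostly by the brighter genes, ran from 3.47 to 3.73 in treated rats and from 3.33 to 3.57 in control rats. The groups did not overlap for 5 of these 14 markers, named here after their values were seen, and for 32.8% of all genes. The log2 fold change was 2.41 for Cd52 (adjusted p = 0.0729), 1.51 for S100a8 (adjusted p = 0.100) and 1.35 for S100a9 (adjusted p = 0.0946), against -0.66 for Itgam (adjusted p = 0.101) and -0.32 for Coro1a (adjusted p = 0.148). Of 9 endothelial and stromal markers 1 was higher, the smooth muscle actin gene Acta2, at a log2 fold change of 0.50 (adjusted p = 0.0390). Their summed log2 level ran from 5.23 to 5.55 in treated rats and from 5.45 to 5.63 in control rats. The part of these cells in the value of Chac1 was not tested.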

How the data were processed

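RNA was purified with a Qiagen kit and labelled with Cy3, per the labels' protocols. Feature Extraction 10.7.1.1 made the files, per the file headers (the submitters' processing notes give 10.7), and the array design is tied to build rn4. The deposited spot intensity is background-subtracted and detrended, per the file headers. The value table deposited by the authors holds a linear ratio without log or centring: each column is close to the signal of its array over the 75th percentile of that array (column over that quotient, 0.998), with medians of 0.110, 0.108 and 0.108 in treated and 0.105, 0.104 and 0.109 in control animals. The labels do not state that step.

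Each value is the log2 processed signal less the array's 75th percentile (1001, 974 and 930 on treated and 907, 976 and 837 on control arrays). Outlier spots, 1 to 3 per array, were treated as missing. Accessions matched to RefSeq (GRCr8) named 28206 probes, and 33331 stayed unnamed. Because the builds differ, coordinates are given only for promoter sequences. Kept probes were well above background on all 3 arrays of a group, and a gene was read at its brightest kept probe. The 12130 genes were fitted with limma 3.58.1 (R 4.3.3, lmFit and eBayes, prior degrees of freedom 1.77), with Benjamini-Hochberg adjustment and a threshold of 0.05. Further probes of a gene were read from the same fit over 40981 kept probes, of which 6.72% passed. "At least" folds raise each dim value to the dimmest signal well above background on its array.

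The members and lists were chosen with earlier results of these data known. Named were all members, up to 4 called genes of each pathway list and, for a list without calls, its 2 genes of smallest p. Tested on simulated data for the 12130 genes, the fit recovered 73.0% of 2-fold and 93.2% of 4-fold changes. Alternatives were a normexp background (offset 50, on median signals, as the files hold no mean spot signal), quantile, median and spike-in scaling (the last chosen after the data were seen), other filters, the deposited table, a replicate block, an intensity trend, other probe summaries and leaving out each array. Slide and scan each held 1 group, so neither could enter as a block.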

Additional observations from a re-analysis of the deposited data

How the results depend on the processing

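No member was called lower in any of the 17 alternatives, and Chac1 was the only one called higher, in 7 of them. The limma calls among members were 0 higher with median scaling, without a filter, with the mean of a gene's probes, with the replicate block and in each of the 6 fits without 1 array, where 1 or 2 members had an unadjusted p under 0.05. Over all genes, 37 were higher and 7 lower without a filter, 229 and 63 with the mean of a gene's probes, 833 and 29 with spike-in scaling, and 0 to 45 and 0 to 2 without single arrays, with 2461 to 2666 genes at p under 0.05 before adjustment. The lower calls were 496 with a normexp background and 395 with an intensity trend. Spike-in scaling took the median of all genes to 0.11, against -0.030, and the median of the ATF4 arm to 0.20. Without single arrays that arm's median ran from -0.02 to 0.14. Pathway list calls were 3 higher and 3 lower with normexp, 2 and 4 with an intensity trend, 2 and 2 in the fit over every probe and 5 and 0 with spike-in scaling. They were 0 and 0 without a filter, with the mean of a gene's probes and without single arrays, 0 higher with median scaling, 0 lower with quantile scaling and 2 lower with probes above background on all 6 arrays. The causes of these shifts were not tested. The replicate numbers share no batch in the labels. In a check of pairing, same-numbered animals had correlations of -0.118, -0.114 and 0.0891, and differently numbered animals from -0.088 to 0.206. These are not correlations of signal levels, which ran from 0.985 to 0.991 between treated and control arrays over the genes tested. With the replicate block limma called 0 genes higher and 0 lower, 0 and 0 in the pathway lists, with 2547 genes at an unadjusted p under 0.05. The log2 fold change of Chac1 stayed between 0.31 and 0.48 except with the mean of its probes (0.88). Differences under 2-fold were not simulated, and 3 arrays a group limit what such a difference can show. The dim Chac1 probes are limited by their signal over background.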

Other observations

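Among secreted stress factors, Gdf15 and Fgf21 were singled out here after their values were seen, and neither passed the test. Gdf15 separated the groups with no overlap. Of all genes, 32.8% also had no overlap, and 14.1% had none with the treated rats higher. Gdf15, a circulating stress cytokine, had log2 levels of -0.20, 0.58 and -0.01 in treated rats against -0.54, -0.61 and -0.45 in control rats (log2 fold change 0.65, SE 0.20, limma adjusted p = 0.127). Fgf21, a hormone induced by ATF4 in liver, read well above background on 0 of 3 control arrays and entered only through the treated group. Treated replicate 2 read -5.20 and control replicate 3 read -5.23, where the dimmest signal well above background on that control array was -5.11. Separation of the groups therefore cannot be read for Fgf21. Its mean level in treated rats was at least 1.51-fold higher (adjusted p = 0.153). Mthfd1l, a mitochondrial folate enzyme that works beside Mthfd2, was also singled out after its values were seen. Its signal was dim, with log2 levels of -4.70, -5.11 and -5.19 in treated rats against -4.63, -4.23 and -4.47 in control rats. It differed by -0.56 on the log2 scale (SE 0.17, limma adjusted p = 0.116). This lay on the other side of 0 from Mthfd2 but did not pass. Of the ERAD and translocation list, 5 of 18 genes had no probe that was kept.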
